A study of Arabidopsis thaliana with 4 samples.

Results

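RNA-dependent RNA polymerase 6 (RDR6) was mutated in Arabidopsis plants with mutant EIN5 and SKI2, and the small RNA left at each locus was compared. The comparison set the rdr6-11 ein5-1 ski2-3 triple mutant against the ein5-1 ski2-3 double mutant, that is 2 of the study's 4 libraries, over all 33602 loci of the count table. The other 2 libraries, Col-0 (the wild type) and rdr6-11, are given as values beside them. Each genotype had 1 library, made from RNA under 200 nt of the above-ground parts of plants 18 days old, kept at 22 °C under days of 16 h and nights of 8 h. EIN5 and SKI2 carry their mutant alleles in both libraries compared, so the pair differs by label only in rdr6-11. The locus lengths used for the deposited values differ within the pair too, as described with the processing. The labels do not say how many plants were pooled.

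EIN5 (also called XRN4) is the cytoplasmic exonuclease that degrades uncapped mRNA from the 5′ end, and SKI2 is the helicase that feeds RNA to the exosome for decay from the 3′ end. RDR6 copies single-stranded RNA into double-stranded RNA, which Dicer-like enzymes cut into small interfering RNA (siRNA). In wild-type plants RDR6 makes the trans-acting siRNAs of the TAS loci after a microRNA (miRNA) has cut the TAS transcript, whereas miRNAs are cut from hairpins by DCL1 and need no RDR6.

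The libraries held 621515 reads in the double mutant and 877589 in the triple mutant, and 808276 and 878632 in Col-0 and rdr6-11. Reads were scaled to these totals to a common depth (RPM, reads per 1e+06 reads of the table), at which 1 read was worth 1.61 RPM in the double mutant and 1.14 RPM in the triple mutant. A source here is a locus with at least 50 reads in the double mutant. It was called lost at 4-fold or more lower in the triple mutant, reduced at 2-fold to 4-fold lower, kept within 2-fold, and raised at 2-fold or more higher, with 1 read added to each count. With 1 library a genotype there is no replicate check and no test. Intervals are exact 95% intervals from the read counts and cover counting error only, since copies made by PCR are not independent molecules. Where a library had 0 reads, 3 reads were assumed for it, which makes the fold a lower bound. In tissue samples, fewer cells of a type and less RNA per cell cannot be told apart. Where 4 read counts are given in a row, they stand in the order wild type (Col-0), double mutant, rdr6-11 single mutant, triple mutant. The RDR6 gene had 3 reads in the double mutant and 2 in the triple mutant, EIN5 had 2 and 4, and SKI2 had 2 and 3, so reads at these genes check none of the genotype labels. The TAS loci, which need RDR6, had 57730 and 15530 reads in the libraries labelled with intact RDR6 (Col-0 and the double mutant), and 111 and 455 in those labelled rdr6-11 (single and triple mutant). The root markers had 1 read in the double mutant and 0 in the triple mutant, the flower markers had 11 and 1, and the 4 leaf genes RBCS1A, LHCB1.1, RCA and CA1 belong to the photosynthesis list, whose values are given with the raised loci.

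The miRNAs with sites in the sources are shown first, because siRNA production by RDR6 often begins where a miRNA cuts. They are printed 5′ to 3′ from RefSeq (TAIR10.1), with the seed, bases 2 to 8, in capitals. The first 3 cut TAS transcripts, and the others have sites in protein-coding sources that were lost, kept or split between outcomes.
miR173-5p: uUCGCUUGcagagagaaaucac
miR390a-5p: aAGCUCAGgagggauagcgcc
miR828: uCUUGCUUaaaugaguauucca
miR393a-5p: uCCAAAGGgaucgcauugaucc
miR472-3p: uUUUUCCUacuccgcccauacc
miR161.2: uCAAUGCAuugaaagugacua
miR166a-3p: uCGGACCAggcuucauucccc
miR167a-5p: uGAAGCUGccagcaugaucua
miR399c-3p: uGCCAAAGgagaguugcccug
miR171a-3p: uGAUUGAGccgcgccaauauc
No seed is shared by any pair of them. miR173-5p, miR828, miR393a-5p and miR472-3p are 22 nt long, and the others are 21 nt. A length of 22 nt is known as a feature of miRNAs that lead RDR6 to the RNA they cut.

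The double mutant had 413 sources. Of these, 105 were lost, 54 were reduced, 206 were kept and 48 were raised. The lost sources are 25.4% of all sources, and this is the share against which the counts of each class are read. Because a source had to reach 50 reads in the double mutant, the set is chosen on one side of the comparison. Among the 736 loci with 50 reads in either library, 105 were lower by 4-fold or more (14.3%) and 98 were higher (13.3%). Among the 4539 loci with 10 reads in either library these calls make 2.31% and 2.16%. The lost sources went from 45693 reads to 3223, that is from 7.35% to 0.367% of the library, which leaves 4.995% of their RPM. The kept sources went from 41.8% to 32.7% of the library, the reduced sources from 19.2% to 5.15%, and the raised sources from 16.95% to 45.7%. The reads that depended on RDR6 by this rule were therefore a small share of the double mutant's library.

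**Figure D1:**
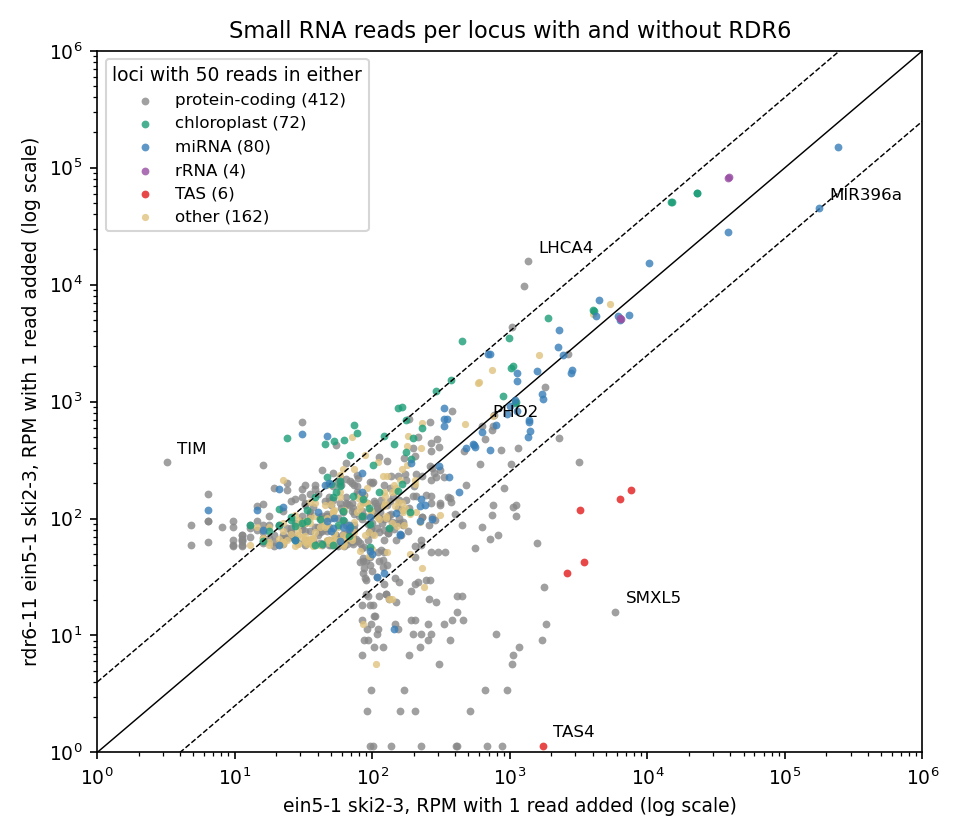
RPM at each locus with at least 50 reads in either library, in the double mutant (x axis) and the triple mutant (y axis), both on log scales with 1 read added; the solid line is equality, the dashed lines are 4-fold, and colours mark locus classes. All 6 TAS loci plotted lie under the lower dashed line, and 19 chloroplast loci lie above the upper one.

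By class, the TAS loci were all lost, protein-coding genes were split, and miRNA, tRNA, rRNA and organelle loci were almost never lost. All 6 TAS sources were lost. Of 236 protein-coding sources, 92 were lost, 39 reduced, 92 kept and 13 raised. Of 60 miRNA sources 1 was lost, MIR156f, with 88 reads in the double mutant and 9 in the triple mutant, while 11 were reduced, 41 kept and 7 raised. Of 33 pseudogene sources 4 were lost and 25 kept. None of 36 chloroplast sources, 4 mitochondrial sources, 24 tRNA sources, 4 rRNA sources or 5 snRNA and snoRNA sources was lost. Against 25.4% of all sources, the share lost was higher among TAS and protein-coding sources and lower in the other classes named here.

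**Figure D2:**
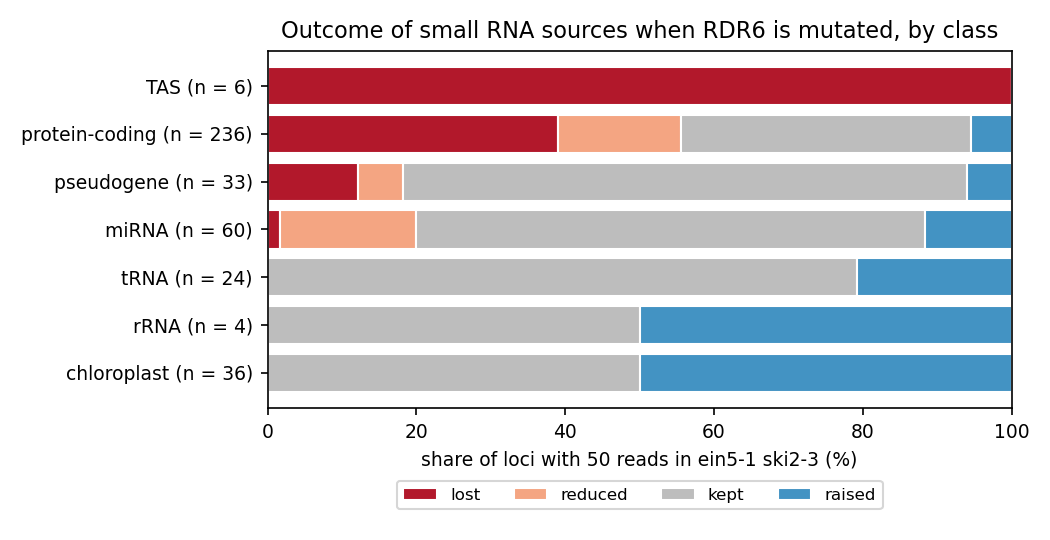
Share of sources in each locus class that were lost, reduced, kept or raised in the triple mutant, as a percentage of loci with at least 50 reads in the double mutant, with the number of sources in parentheses. All 6 TAS sources were lost, protein-coding sources were split, and no tRNA, rRNA or chloroplast source was lost.

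The TAS loci make trans-acting siRNAs, which guide the cutting of other transcripts such as PPR and ARF mRNAs. TAS2 had 20441 reads in the wild type, 4753 in the double mutant, 26 in the rdr6-11 single mutant and 153 in the triple mutant, a fall of 43.9-fold (interval 37.3 to 51.9) from double to triple. TAS1C had 12886, 3900, 32 and 128 reads, 43.0-fold lower (36.1 to 51.7). TAS1A had 9421, 2154, 19 and 36 reads, 84.5-fold lower (60.8 to 121). For these loci both libraries without RDR6 lie far under both libraries with it. TAS1B, with 1606 reads in the double mutant and 29 in the triple mutant, was 78.2-fold lower (54.2 to 117). TAS3A, the source of the siRNAs that act on ARF genes, had 10056, 1995, 22 and 103 reads and was 27.3-fold lower (22.4 to 33.7). TAS3A is set off by miR390, and it kept the largest share of its RPM among the 6, 3.66%. TAS4 differed from the rest in Col-0, where it had 8 reads. It had 1080 reads in the double mutant and 0 in the triple mutant, beside 1 in rdr6-11, at least 508-fold lower. TAS3B and TAS3C were too low for a call, with 16 and 26 reads in the double mutant and 2 and 4 in the triple mutant. Summed over all 8 TAS loci, reads fell from 2.50% of the double mutant's library to 0.0518% of the triple mutant's, 48.2-fold (43.9 to 53.0), and the triple mutant's 455 reads stand beside 111 in rdr6-11.

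The sites on TAS transcripts are shown because they are where these sources begin. They are matches to TAIR10.1 made here, printed 5′ to 3′ on the transcript strand, with bases that pair with the miRNA in capitals and mismatches and G:U pairs in lower case.
TAS2 site for miR173-5p: GTGATTTtTCTCTcCAAGCGAA
TAS4 site for miR828: TGGAATACTCATTTgAGCAAGA
TAS3A site for miR390a-5p: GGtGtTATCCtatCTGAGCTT
The TAS2 site lies at chr2:16539991-16540012 on the minus strand, the TAS4 site at chr3:9417809-9417830 on the minus strand and the TAS3A site at chr3:5862099-5862119 on the plus strand, all in non-coding transcripts. The miRNA genes that match these sites did not fall with the TAS siRNAs, except for MIR828. MIR173 had 217 reads in the double mutant and 616 in the triple mutant, 2.01-fold higher, and MIR390a had 1769 and 1624, which is 65.0% of its RPM. MIR828 had 20 reads in the double mutant and 0 in the triple mutant, 2 in Col-0 and 0 in rdr6-11. Its part in the TAS4 result was not tested.

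Protein-coding sources are mRNAs, which in the wild type are mostly degraded without giving siRNA. The median log2 difference, triple over double mutant, was -1.22 over the 236 coding sources and 0.31 over the 2926 coding genes with 10 reads in either library. The lost sources kept a median of 6.86% of their RPM (range 0% to 22.7%), the reduced sources 39.5% and the kept sources 83.8%. The threshold runs through a continuous range. Just inside it were BRG2, with 125 reads in the double mutant and 40 in the triple mutant, and XTH24, with 57 and 18, and just outside were CYP710A2, with 55 and 19, and REV, with 140 and 51.

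Among lost coding sources the one with most reads was SMXL5, a SMAX1-LIKE protein needed for phloem formation, with 3, 3617, 4 and 13 reads. It was 393-fold lower (229 to 739) and stood at the level of Col-0 and rdr6-11. Its close relative SMXL4 had 596 reads in the double mutant and 2 in the triple, 421-fold lower (116 to 3483). SMXL7, which represses strigolactone responses, had 138 and 6 reads, 32.5-fold lower (14.5 to 90.03). The SMXL list had 8 genes, of which 6 were measured at 10 reads in either library. Of these, 3 had the 50 reads in either library that a call needs, and all 3 were lower, beside 14.3% of all 736 loci with such reads. SMAX1, with 20 reads in the double mutant and 23 in the triple mutant, was under this minimum.

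DFL1 and WES1, GH3 enzymes that join auxin to amino acids, were among the lower genes of largest fold. DFL1 had 1056 reads in the double mutant and 7 in the triple, 213-fold lower (103 to 531). WES1 had 255 and 0, at least 120-fold lower. These were the only 2 of the 10 GH3 genes measured. The auxin receptors AFB2 and AFB3 were lost too, from 445 to 58 reads (10.8-fold, 8.23 to 14.5) and from 127 to 11 reads (16.3-fold, 8.81 to 33.5). TIR1, the receptor of the same family, had 7, 46, 11 and 34 reads, and was 1.91-fold lower (1.2 to 3.07). The interval for TIR1 lies wholly under those for AFB2 and AFB3, but TIR1 did not reach 50 reads. All 3 carry a site for miR393 in their coding sequence, and the sites of AFB2 and AFB3 have the same letters.
AFB2 and AFB3 site for miR393a-5p: GaAaCAATGCGATCCCTTTGGA
TIR1 site for miR393a-5p: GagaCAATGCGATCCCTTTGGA
The AFB2 site lies at chr3:9870237-9870258 on the plus strand and the TIR1 site at chr3:23273727-23273748 on the minus strand. NPY5, which acts with the kinase PINOID in auxin-driven organ formation, went from 1108 to 22 reads, 71.1-fold lower (46.7 to 114).

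Other lost sources with many reads belong to several functions. GAE6, which makes UDP-galacturonic acid for pectin, had 1984 reads in the double mutant and 267 in the triple, 10.5-fold lower (9.23 to 12.0). AK3, an aspartate kinase of amino acid synthesis, had 1419 and 425 reads, 4.71-fold lower (4.23 to 5.27). Both were called lost, yet the triple mutant stayed well above rdr6-11, which had 21 reads at GAE6 and 16 at AK3. BRI1, the brassinosteroid receptor, went from 978 to 53 reads, 26.1-fold lower (19.8 to 35.0). CRF2, a cytokinin response factor, went from 722 to 6 reads, 170-fold lower (77.7 to 465). FMO, a flavin-binding monooxygenase, had 541 reads in the double mutant and 0 in every other library, at least 254.6-fold lower. CYP79B2 and CYP79B3, which turn tryptophan into the oxime used for indole glucosinolates and auxin, were lost, from 285 to 11 and from 205 to 10 reads. CYP83B1, the next enzyme of glucosinolate synthesis, had 49 and 92 reads and was not called. The nitrate reductases NIA2 and NIA1 fell by less, from 279 to 76 reads (19.3% of RPM remaining) and from 152 to 25 reads (11.6% remaining). In the same nitrogen list of 9 genes, 8 were measured and 3 had the 50 reads in either library that a call needs. Of these 3, NIA2 and NIA1 were lower. GLU1, the ferredoxin-dependent glutamate synthase, was higher, with 19 reads in the double mutant and 169 in the triple mutant. Among all 736 loci with 50 reads in either library 14.3% were lower and 13.3% higher. GRF5, a growth-regulating transcription factor, went from 640 to 4 reads, AT2G39870 from 1128 to 10, AT1G11700 from 685 to 91 and AT5G20700 from 649 to 110.

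**Figure D3:**
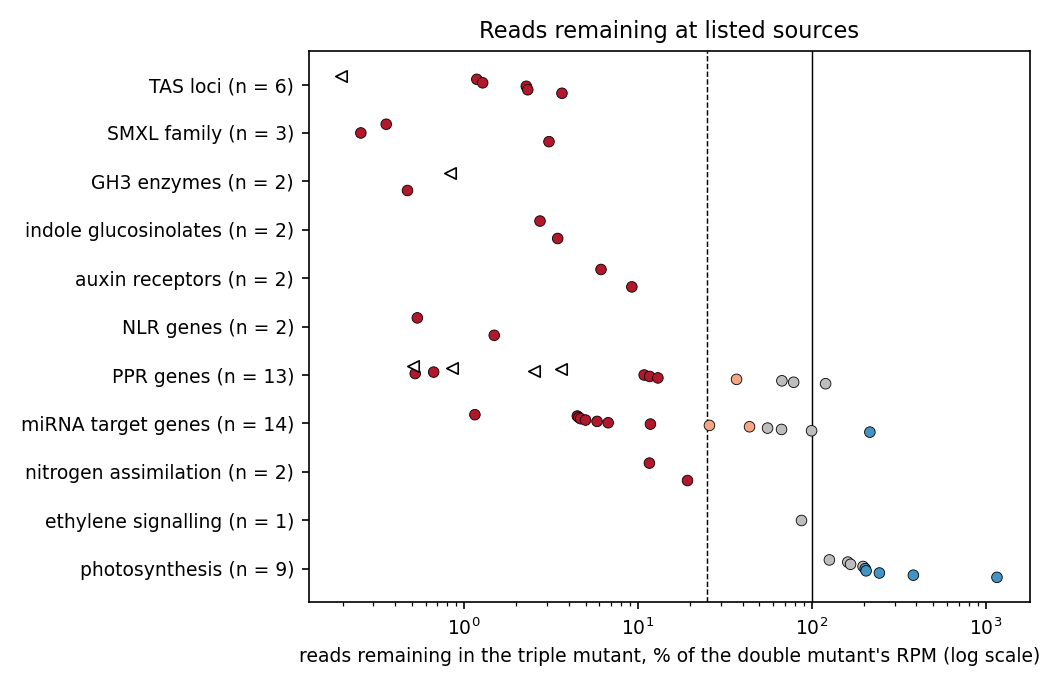
RPM left in the triple mutant as a percentage of the double mutant's, on a log scale, for each listed gene that is a source; the dashed line marks 25%, the solid line 100%, open triangles are genes with 0 reads in the triple mutant drawn at 3 reads, and colours give the outcome. TAS, SMXL, GH3, indole glucosinolate, auxin receptor, NLR and nitrogen assimilation sources lie left of the dashed line. PPR genes and miRNA targets lie on both sides, and photosynthesis sources lie above 100%.

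Known miRNA targets were split. The list had 64 genes, of which 30 were measured and 15 had the 50 reads in either library that a call needs. Of these 15, 8 were lower and none was higher. Among all 736 loci with 50 reads in either library 14.3% were lower and 13.3% higher. The 30 measured genes had a median log2 difference of -2.23 against 0.31 over all 4539 loci. The HD-ZIP III transcription factors, which set organ polarity and are cut by miR166, show how far genes with one kind of site can differ. PHB had 2 reads in the wild type, 279 in the double mutant, 0 in the rdr6-11 single mutant and 18 in the triple mutant, which makes it 21.9-fold lower (13.6 to 37.5). ATHB8 had 1, 255, 1 and 18 reads, 20.004-fold lower (12.4 to 34.3). REV had 0, 140, 4 and 51 reads and was 3.88-fold lower (2.79 to 5.45), an interval that does not meet those of PHB and ATHB8. PHV and CNA, with 63 and 73 reads in the double mutant and 6 each in the triple mutant, were lost. The site letters do not follow this split, since REV has the site of ATHB8 letter for letter.
PHB and PHV site for miR166a-3p: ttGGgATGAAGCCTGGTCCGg
REV and ATHB8 site for miR166a-3p: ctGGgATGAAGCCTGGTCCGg
CNA site for miR166a-3p: ctGGAATGAAGCCTGGTCCGg
Each of these sites spans 2 exons of the coding sequence, for REV at chr5:24398787-24398898 on the plus strand and for ATHB8 at chr4:15866872-15866974 on the minus strand, introns included. MIR166 reads, summed over 7 genes, went from 2788 to 3187, 1.24-fold lower in RPM, and higher when scaled to the sum over miRNA genes.

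The auxin response factors ARF6 and ARF10 were lost. ARF6, cut by miR167, had 0, 491, 1 and 8 reads, 86.7-fold lower (43.6 to 202). ARF10, a target of miR160, went from 158 to 10 reads, 22.3-fold lower (11.8 to 47.4), and ARF8, under 50 reads, had 42 and 1. AGO1, the main slicer of miRNA targets and itself cut through miR168, went from 121 to 8 reads, 21.4-fold lower (10.5 to 50.6). SPL2, a target of miR156, went from 60 to 10.
ARF6 site for miR167a-5p: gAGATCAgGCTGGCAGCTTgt
PHO2 site for miR399c-3p: tAGGGCAAaTCTtCTTTGGCA
The second site belongs to a target that behaved in the opposite way. PHO2, a ubiquitin-conjugating enzyme that limits phosphate uptake, had 31, 386, 38 and 544 reads, so 99.8% of its RPM remained (ratio 1.00, 0.87 to 1.14). PHO2 was thus higher with ein5-1 ski2-3 than without, with RDR6 intact and in the rdr6-11 background. Its site shown above is in the untranslated region, at chr2:14282106-14282126 on the minus strand. MIR399 reads over 6 genes were few, 18 in the double mutant and 57 in the triple mutant.

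Kept coding sources were as many as lost ones, and most of them were far under these levels in Col-0. Of the 92 kept sources, 58 were at least 4-fold over Col-0 in the double mutant, as were 70 of the 92 lost sources. Those 58 summed to 643, 6493, 919 and 7979 reads. The 70 lost ones summed to 791, 25075, 723 and 2319. Of the 58, 46 had at least 50 reads in the triple mutant and were at least 4-fold higher there than in rdr6-11. At these the gain was seen in the rdr6-11 background too. Of the 70, 7 met the same rule. Kept and lost are defined by the triple mutant's reads, with a median of 11 at the 92 lost sources. The difference between 46 and 7 therefore follows in part from the definition and is no separate result.

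EBF1, the F-box protein that marks EIN3 for destruction in ethylene signalling, is an example, with 6, 173, 0 and 213 reads (87.2% of RPM remaining, counts in the order given at the start). UGT75B1, a glucosyltransferase, had 19, 411, 24 and 419 reads (72.2% remaining). AT4G18670, a leucine-rich repeat protein, had 31, 192, 25 and 227 reads. In each, both libraries with ein5-1 ski2-3 are high and both others low. The transporter genes AT1G18000 and AT1G18010 showed the same order, 27, 465, 31 and 544 reads and 32, 461, 23 and 502 reads, but all their 21-nt words recur elsewhere in the genome and their counts cannot be told apart. Other kept sources with many reads were present in every library. RAN1, the copper transporter that supplies ethylene receptors, had 1257, 1112, 1629 and 1180 reads. AT2G42980, an aspartyl protease, had 1041, 477, 690 and 668, AT1G11160, a WD40 protein, had 207, 286, 268 and 328, AT2G16586 had 166, 188, 301 and 355, and AT2G01021, all of whose 21-nt words recur, had 2662, 1631, 2474 and 2253. These loci are sources in the double mutant by count, and neither pair of mutations moved them by 4-fold.

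Reduced sources lie between. AT1G13360 had 10, 713, 5 and 352 reads (35.0% of RPM remaining). AT4G32020 had 8, 531, 6 and 340 reads (45.3% remaining). GRP7, a clock-controlled RNA-binding protein, went from 140 to 57 reads, CDF3, a DOF factor of flowering time, from 167 to 90, and TCP14, a growth regulator, from 159 to 77. At these 5 genes, chosen after their values were seen, the triple mutant was lower than the double mutant and still far above rdr6-11. They do not stand for all reduced sources. Of the 39, 15 had at least 50 reads in the triple mutant and were at least 4-fold higher there than in rdr6-11. Sources under 50 reads in the triple mutant were left out of this count whatever their fold.

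Some families held members with different outcomes. The following examples were also chosen after their values were seen, and no tally over families was made. Among the lists, every source was lost for TAS (6), SMXL (3), GH3 (2), auxin receptors (2), NLR genes (2), indole glucosinolates (2) and nitrogen assimilation (2). GAE1, the paralogue of GAE6, had 299 reads in the double mutant and 169 in the triple, 2.50-fold lower (2.06 to 3.03) beside 10.5-fold for GAE6. Among receptor kinases, BAM3 went from 165 to 8 reads (29.1-fold, 14.4 to 68.6) and PXY from 229 to 7 (46.2-fold, 22.1 to 116), and BAM1 from 126 to 50 (3.56-fold, 2.55 to 5.04). BAM1, BAM3 and PXY all act in meristem or vascular signalling. Among UDP-glycosyltransferases, UGT84A2 went from 236 to 11 reads (30.3-fold, 16.6 to 61.5), its relative UGT84A3 from 73 to 38 (2.71-fold, 1.81 to 4.13), AT2G18570 from 461 to 93 (6.999-fold, 5.59 to 8.84) and AT2G18560 from 121 to 137 (1.25-fold, 0.968 to 1.60). LBD39, a repressor of nitrate responses, went from 75 to 23 reads and LBD37 from 78 to 113. In each of these pairs the counting intervals of the folds do not overlap.

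Lost and kept coding sources differed by count in a feature that the rule did not use, the number of exons in the annotated gene. Of the 92 lost sources 25 had a single exon (27.2%), against 51 of the 92 kept sources (55.4%) and 21 of the 39 reduced sources (53.8%). Of the 13 raised sources 4 had a single exon (30.8%), a share near that of the lost sources, so a low share is not particular to loss. Read the other way, 25 of 101 single-exon sources were lost (24.8%) and 51 were kept (50.5%), while 67 of 135 spliced sources were lost (49.6%) and 41 kept (30.4%). Among sources at least 4-fold over Col-0 in the double mutant, 18 of 77 single-exon sources (23.4%) and 52 of 86 spliced sources (60.5%) were lost. Leaving out sources that overlap another gene, consist of repeated sequence or hold a miRNA copy gave 20 of 71 (28.2%) and 54 of 100 (54.0%). Exon number, overlaps and repeats were looked at after the outcomes were known, and no test was made. Single-exon genes were lost too, for example GAE6, BRI1 and CRF2, and spliced genes were kept, for example PHO2 with 9 exons. Spliced sources had longer transcripts (median 2164 nt against 1914 nt) and similar depth (median 114 reads against 103 in the double mutant), and the part of length was not tested.

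**Figure D4:**
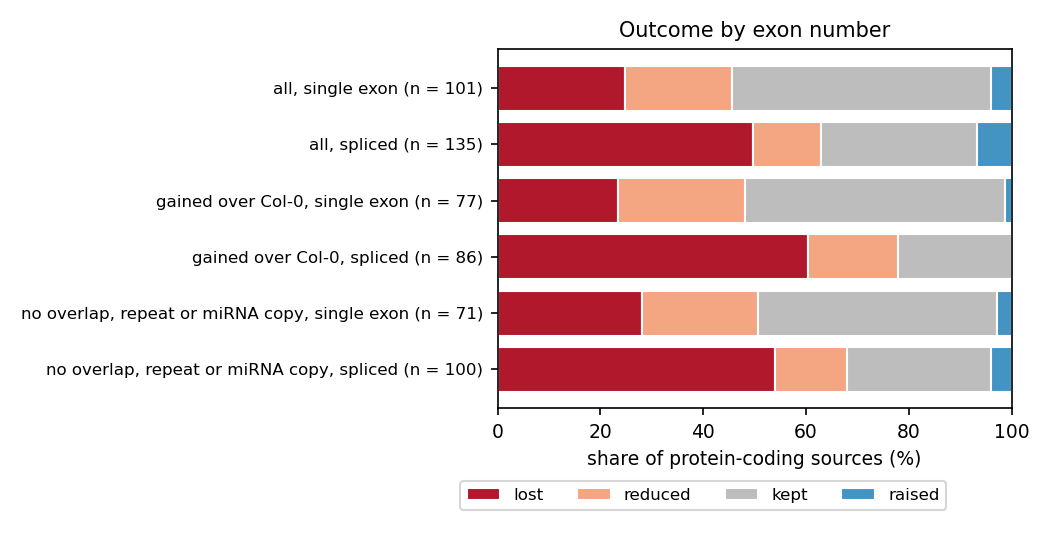
Outcome of protein-coding sources in the triple mutant by whether the annotated gene has 1 exon or is spliced, for all sources, for those at least 4-fold over Col-0 in the double mutant, and for those without overlap, repeats or a miRNA copy; bars are percentages of the sources in parentheses. The lost share was 24.8% for single-exon and 49.6% for spliced sources, and larger for spliced sources in all 3 sets.

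PPR genes, many of which help process organelle RNA, are a case in which the sources that were not lost, 3 kept and 1 reduced, share a sequence. The list holds PPR genes known as siRNA sources, so it was partly chosen for that. Of its 25 genes 19 were measured, with a median log2 difference of -4.40, and 13 had the 50 reads in either library that a call needs. Of these 13, 9 were lower and none higher, beside 14.3% lower among all 736 loci with such reads. All 9 lost sources had reads in Col-0. AT1G63130 had 682 reads in the wild type, 420 in the double mutant, and 0 in rdr6-11 and in the triple mutant, at least 198-fold lower. AT1G63150 had 574, 406, 0 and 2 reads, RPF3 had 422, 318, 1 and 1, and AT1G63080 had 472, 250, 3 and 0. AT1G62910 fell least completely among the genes with over 300 reads, with 1173, 691, 205 and 114 reads (8.56-fold lower, 7.01 to 10.5). RPF2, AT1G63070, AT1G12775 and AT1G12300 were also lost, with 84, 59, 163 and 125 reads in the double mutant and 0, 0, 25 and 23 in the triple mutant.

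The 4 PPR sources that were not lost were AT1G62590 (776, 206, 563 and 196 reads), AT1G63330 (811, 179, 515 and 199), AT5G41170 (426, 66, 376 and 112) and AT1G63400 (658, 232, 382 and 121). In rdr6-11 they had 376 to 563 reads. Each of the 4 holds the complement of miR161.2 with 1 mismatch, and none of the 9 lost PPR sources does. Summed, the 4 had 2671, 683, 1836 and 628 reads, and the 9 had 3761, 2516, 236 and 165. The MIR161 gene itself had 4122, 704, 3358 and 1315 reads, and in RPM it was lower in both libraries with ein5-1 ski2-3 than in the libraries without, as were all 4 of these genes. The letters that differ are shown.
AT1G62590 and AT1G63330 site for miR161.2: TAGTCACgTTCAATGCATTGA
AT1G63400 site for miR161.2: TAGTCACTTTCAAcGCATTGA
AT1G63130, RPF3 and AT1G62910 site for miR161.2: TAGTCACTTTCAgcGCATTGA
AT1G63150 site for miR161.2: TtGTtACTTTCAATGCATTGA
The AT1G62590 site lies at chr1:23178190-23178210 on the minus strand and the AT1G63130 site at chr1:23413830-23413850 on the plus strand, both in coding sequence. Whether reads of miR161 itself were counted at these genes was not tested, since the table gives no read sequences, and these PPR genes share much sequence with each other (repeated 21-nt words make 48.4% of AT1G63130 and 96.1% of AT1G63330).

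**Figure D5:**
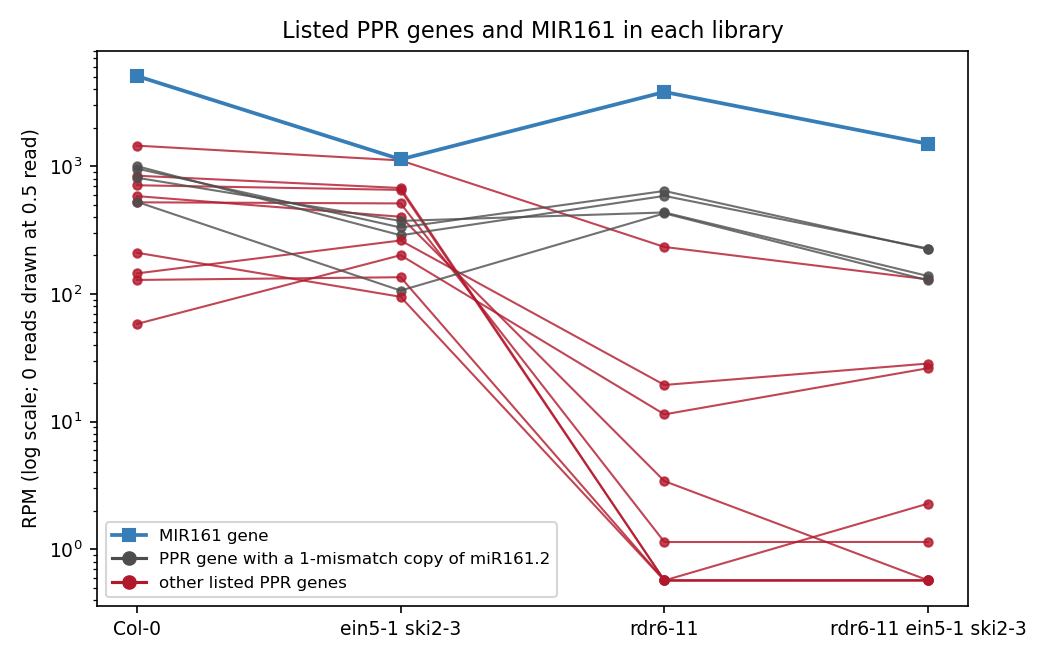
RPM (log scale) in the 4 libraries for the 13 listed PPR sources and for the MIR161 gene; grey lines are the 4 PPR genes with a 1-mismatch copy of miR161.2, red lines the other 9, and 0 reads are drawn at 0.5 read. The red lines fall in both libraries without RDR6, and the grey lines do not fall by 4-fold from the double to the triple mutant.

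Other coding loci also hold a miRNA copy. Of 23 coding loci with 50 reads in either library and an exact or 1-mismatch copy of a mature miRNA on either strand, 5 were lower and none was higher. Among all 412 coding loci with 50 reads in either library 92 were lower (22.3%), so the share lower among loci with a copy is near the background and is no result about them. HAM1, HAM2 and HAM3, GRAS factors of the shoot meristem, have the full complement of miR171a-3p. HAM3 had 113, 113, 106 and 107 reads. HAM1 had 98, 92, 92 and 57, and HAM2 had 108, 89, 116 and 70.
HAM1, HAM2 and HAM3 site for miR171a-3p: GATATTGGCGCGGCTCAATCA
For HAM2 the site lies at chr3:22411544-22411564 on the minus strand, in coding sequence. The 3 MIR171 genes together had 752, 113, 662 and 219 reads, a fall from Col-0 to the double mutant that the HAM genes did not show. This sum also counts the genes of miR171b and miR171c, while the exact copy in the HAM genes is of miR171a-3p only. Whether reads of miR171a-3p were counted at the HAM genes was not tested. AGO2, a target of miR403, had 405, 59, 310 and 180 reads beside 11692, 3777, 9042 and 4721 at MIR403. In RPM, AGO2 in the triple mutant was 2.16-fold above the double mutant (1.60 to 2.95), and MIR403 was 1.13-fold lower (1.08 to 1.18). TOE2, a target of miR172, had 163, 27, 181 and 122 reads beside 3031, 433, 2563 and 2219 at MIR172a. AGO2 and TOE2 were both lowest in the double mutant.

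The NLR immune receptors gave 2 lost sources. AT5G38850 had 811, 658, 1 and 5 reads, 186-fold lower (79.2 to 574). AT5G43740 had 114, 190, 0 and 4 reads, 67.1-fold lower (25.8 to 249), and carries a coding-sequence site for miR472 at chr5:17566541-17566562 on the plus strand.
AT5G43740 site for miR472-3p: GGTATGGGgGGAGTAGGAAAAA
AT5G43740 is a miRNA-copy locus that was lost. Of the list's 18 genes 9 were measured and 7 of these were not called, but only 3 of the 9 had the 50 reads that a call needs. Among all 736 loci with 50 reads in either library 105 were lower (14.3%). AT1G12290 had enough reads and was not called. It overlaps the MIR472 gene and had 48 reads in the double mutant and 140 in the triple mutant, while MIR472 had 24 and 99.

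Of all lost sources, 26 already had 50 reads in Col-0. For 18 of these the rdr6-11 library was also at least 4-fold under Col-0. They are the TAS loci except TAS4, 8 of the PPR genes, the lost AFB and NLR genes, and AT3G23690, a bHLH factor. These 18 were lower in the library with rdr6-11 in both backgrounds. For 5 others rdr6-11 was within 2-fold of Col-0. AT3G44570, annotated as a retrotransposon protein, had 458, 140, 457 and 0 reads, and AT3G44580 had 400, 97, 347 and 1. At these 2 loci the triple mutant had 0 and 1 reads, and the double mutant lay between it and the other libraries, in reads and in RPM. AT1G76270 had 88, 390, 65 and 74 reads, AT3G59750 had 69, 164, 114 and 44, and the pseudogene AT1G42650 had 53, 147, 31 and 22. AT5G41330, a BTB protein, had 265 reads in rdr6-11, above its 120 in Col-0, and went from 566 in the double mutant to 158 in the triple mutant. The last 2, AT1G25570 and SPT, were 2-fold to 4-fold lower in rdr6-11 than in Col-0. No locus that was 4-fold lower in one background was 4-fold higher in the other.

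MiRNA reads fell as a share of the library, from 53.7% in the double mutant to 31.2% in the triple mutant, 1.72-fold (1.71 to 1.73), and MIR396 and MIR159 made up the fall. MIR396 went from 115576 to 53015 reads, 18.6% to 6.04% of the library, 3.08-fold lower (3.05 to 3.11), and MIR159 from 174311 to 157135 reads, 28.0% to 17.9%, 1.57-fold lower, a direction that turns when reads are scaled to the sum over miRNA genes. MIR396a went from 109159 to 39468 reads and its sister gene MIR396b, whose mature miRNA differs by 1 mismatch, from 6417 to 13547. Of 41 miRNA families with 50 reads, 23 stayed within 2-fold, 6 were lower by 2-fold or more, none by 4-fold, and 12 were higher by 2-fold or more. MIR398 and MIR408, miRNAs of the copper response, were 2.59-fold and 3.65-fold lower. MIR172, which times flowering, was 3.46-fold higher (3.22 to 3.72). MIR169, which targets NF-Y subunits, went from 159 to 1667 reads, 7.42-fold higher (6.31 to 8.79), and had 2502 in Col-0 and 2188 in rdr6-11. MIR447 went from 57 to 348 reads. MIR169 and MIR447 were thus low in the double mutant and nearer to Col-0 in the triple mutant.

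Organelle and photosynthesis reads were higher in the triple mutant. Chloroplast loci went from 9.81% to 27.1% of the library, 2.76-fold higher (2.74 to 2.79), beside 9.57% in Col-0 and 21.2% in rdr6-11. ATCG00680 had 962, 280, 2396 and 2903 reads, 7.34-fold higher (6.49 to 8.33). ATCG00340, ATCG00280, ATCG00860 and ATCG01280 were 4.12-fold to 5.79-fold higher. Of the 29 nuclear photosynthesis genes listed 28 were measured, with a median log2 difference of 1.29 against 0.31 over all 4539 loci. A call needs 50 reads in either library, which 21 of them had, and of these 4 were higher and none was lower. Among all 736 loci with 50 reads in either library 98 were higher (13.3%), so the count of 4 is no result about these genes. LHCA4, a light-harvesting protein of photosystem I, had 1550, 843, 5519 and 13854 reads, 11.6-fold higher (10.9 to 12.5), overlaps the gene ATSMC2, and makes most of the list's sum, which went from 2076 to 18188 reads. LHCB5, of photosystem II, went from 114 to 619 reads, and RCA, which activates rubisco, from 18 to 133. For the chloroplast class, ATCG00680 and LHCA4 the 2 libraries with rdr6-11 were higher than the 2 without it.

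Other coding loci higher by 4-fold or more were mostly not sources in the double mutant. TIM, a triose phosphate isomerase gene that overlaps AT2G21172, had 2, 1, 102 and 267 reads. With 1 read in the double mutant its ratio of 189 has an interval of 33.6 to 7496. DIN10, of the raffinose synthase family, had 59, 3, 41 and 140 reads, AT3G22210 had 88, 18, 320 and 591, and CP12-2, a regulator of the Calvin cycle, had 47, 9, 97 and 253. AT1G63750, an NLR gene, had 2, 2, 120 and 77 reads. ERD6, TCH3, FRO6 and emb1417 had 2 to 4 reads in the double mutant and 83, 82, 73 and 51 in the triple mutant. At TIM and AT1G63750 both libraries with rdr6-11 were high, and at ERD6 and TCH3 only the triple mutant was.

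Of the 8 ethylene signalling genes 6 were measured and none was called, but only 1 had the 50 reads that a call needs. The sum over the list went from 230 to 317 reads, a ratio of 1.02 in RPM (0.861 to 1.22, double over triple). The housekeeping list had 6 of 9 genes measured and none called, but only 2 had the 50 reads that a call needs. The log2 differences of the 6 ran from -1.08 to 3.89, with a median of 0.15. Only 1 of the 14 listed silencing and decay genes reached 10 reads. AGO1 and AGO2, described above as miRNA targets, are not in that list.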

How the data were processed

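Small RNA under 200 nt was measured in 4 genotypes, 1 library each. The authors deposited a count of reads and an RPKM value for each locus and library, per the file headers. Per the submitters' processing notes, BWA, CASAVA 1.8.2 and the genome build TAIR9 were used, in steps not specified. Not given in the sources used here are the read sizes kept, strand and the treatment of reads matching several places, so a count mixes siRNA, miRNA and RNA fragments. Dividing the counts by RPKM gave locus lengths, which differed between the double and triple mutant at 965 of 15610 loci (6.18%), so RPKM was not compared.

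Counts were scaled to column sums as RPM. Loci were matched to TAIR10.1 by identifier, and 32835 matched. Folds and shares have exact binomial (Clopper-Pearson) intervals at 95%. Calls use a pseudocount of 1 read, a fold of 4 and a minimum of 50 reads. The call rule was tested on simulated counts. miRNA sites were found by pairing RefSeq mature sequences with annotated transcripts, a G:U pair counting 0.5. A copy of a miRNA was searched on both strands of the locus. Python 3.11.15, edgeR 4.0.16 (R 4.3.3) for TMM scaling only, and pandas 2.3.3 were used.

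Named coding loci are the 15 lost and 12 kept sources with most reads and the 12 lower and 10 higher with the largest fold, plus other-class loci and members of 15 gene lists with 50 reads. Genes and lists were chosen with earlier results of these data known.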

Additional observations from a re-analysis of the deposited data

How the results depend on the processing

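No paired analysis was possible because each genotype has 1 library, and for the same reason none could be left out. The main values were 105 loci lower, 98 higher, and 92 coding sources lost, 39 reduced, 92 kept and 13 raised. There were 12 other settings and 1 more chosen after seeing the data. No named locus past 4-fold turned its direction. The scalings could not turn one, since their largest shift, 0.78 in log2, is smaller than a 4-fold change. Changes of the minimum or the fold limit leave each fold as it was, so they could not either. Of 47 named loci not past 4-fold, 17 turned with miRNA scaling (UGT75B1 from a log2 difference of -0.47 to 0.31), 7 without organelles, and 2 or 3 with the other scalings. Scaling shifted every log2 difference by 0.18 (median of ratios), 0.03 (TMM), 0.12 (without small RNA and organelle classes), 0.32 (without organelles) or 0.78 (miRNA reads). With miRNA scaling 81 loci were lower and 223 higher (26.6% of calls lower against 51.7%), with 25 coding sources reduced and 36 raised. Without organelles 99 were lower and 138 higher (41.8% lower), 21 coding sources were raised, and the class ratios, triple over double, were 1.101 for protein-coding (0.883 in the main scaling, so the direction turned), 0.725 for miRNA and 0.0259 for TAS. Of 66 named loci past 4-fold, 63 and 65 stayed so under these scalings and all 66 under the other scalings and the pseudocount of 5.

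A minimum of 20 reads gave 193 lower, 215 higher, 167 coding sources lost, 133 reduced, 310 kept and 60 raised, and 193 lost and 605 kept over all sources. A minimum of 100 gave 68, 57, 60, 21, 36 and 8, then 68 and 102, with 43 spliced sources lost. No minimum gave 2991 lower and 794 higher. A fold of 8 gave 27 higher, 5 coding raised and 16 single-exon lost. A fold of 2, which moves the other limits to its square root, gave 159 lower, 264 higher, 23 coding reduced, 58 kept and 24 raised, 159 lost and 120 kept over all, and 46 single-exon lost. Without repeated, overlapping or miRNA-like loci, chosen after seeing the data, 50 were higher, 61 coding sources kept and 6 raised, and 120 kept over all. Beyond these built-in effects the cause was not tested. Depth limits loci under 50 reads, where 3 reads, the limit a count of 0 allows, are 4.83 RPM in the double mutant.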
